A study of Mus musculus with 8 samples.

Results

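Pericytes and vascular smooth muscle cells, together called mural cells, wrap the small vessels of the brain, and 10 genes that mark them were followed in the striatum of mice labelled as carrying a gene trap in 1 copy of Brd2. The members were chosen by gene name: every non-control spot of the arrays named Pdgfrb, Rgs5, Cspg4, Kcnj8, Abcc9, Notch3, Des, Tagln, Acta2 or Myh11. All 10 genes were on the array, of 24324 named genes in all, each read by 1 probe, and the probes of Acta2 and Des were printed at 10 spots each, which gave 28 spots. The list was drawn up with earlier results of these data in view, so the genotype differences of its members are given as a description, with their errors and no test.

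Brd2 encodes a bromodomain protein that binds acetylated histones and helps to regulate transcription. The study compared 4 adult wildtype males with 4 adult males heterozygous for a gene trap in Brd2 (Brd2+/-). Both groups came from matings between heterozygotes at generation 7 of backcrossing to C57Bl/6J, and genotypes were read by PCR over the trap junction. The trap is in the germline, so no cell type is singled out by a promoter or a Cre. Striatal RNA of each mouse was amplified, labelled with Cy3 (replicates 1 and 3) or Cy5 (replicates 2 and 4), and hybridised to 4 arrays of 1 slide, each holding 2 mice of the same genotype. Array and genotype are therefore nested: a difference between genotypes is also a difference between 2 arrays and 2 others.

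Endothelial cells recruit pericytes by releasing PDGF-B, which pericytes sense through the receptor Pdgfrb. Pericytes sit on capillaries and hold little contractile protein, whereas smooth muscle cells ring arterioles and are filled with smooth muscle actin and myosin, which set the vessel's diameter. Notch3 receives signals from endothelial Jagged and Delta ligands and keeps smooth muscle cells of brain arteries in their mature state. In whole tissue, fewer mural cells and less RNA per mural cell cannot be told apart.

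As a measure of depth, the median spot stood 3.72 to 10.5 times above its local background. Of 39429 probes, 16393 (heterozygous replicate 3, the lowest) to 24864 stood well above background, and no spot was saturated. Across 18393 probes the correlation was 0.986 to 0.989 between the mice of 1 array and 0.925 to 0.959 between arrays. The labels disagree on the tissue: the free description names the heart's left atrium, the tissue field gives prefrontal cortex and striatum together, and the protocol says that the frontal cortex was taken off before striatum was dissected. All 10 striatal projection neuron genes looked up were well above background in all 8 samples, whereas of 10 heart and skeletal muscle genes 2 were and 3, Myl7, Actc1 and Ckm, were in none. Brd2 itself did not read lower in the libraries labelled heterozygous. Both of its probes read higher there on average, the dimmer one without overlap. Its brighter probe read 11.46 ± 0.65 log2 units in wildtype and 11.75 ± 0.06 in heterozygous samples (SD, n = 4 each), and its dimmer probe 7.13 ± 0.26 and 8.01 ± 0.18. The position of these probes relative to the trap was not analysed here, so the array gives no check of the genotypes. Below, wildtype and heterozygous mean samples so labelled, and every direction rests on those labels.

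The values below are log2 units of background-corrected, normalised signal, in which 1 unit is a doubling. A correction constant compresses differences of dim probes, and levels of different probes cannot be ranked against each other. Across the 18393 probes tested, limma called none at an adjusted p under 0.05 (0%, Benjamini-Hochberg over all probes, lowest adjusted p = 0.435), while 1466 probes (7.97%) had an unadjusted p under 0.05, 3.89% higher in heterozygous samples and 4.08% lower. Of the 10 members 8 entered that fit, whose differences and SEs are given below. Des and Myh11 were too dim to enter it.

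Each probe is a DNA strand of 60 bases whose match in the transcript sets what is measured. The first 30 bases of 4 of them are shown, those of the 3 members, Pdgfrb aside, whose genotypes lay furthest apart, and that of Acta2, the 1 fitted member printed at 10 spots. All are in lower case, since no base is singled out.
Rgs5: agagtaccgctgtgttatctggacattctc
Abcc9: attgcgttgcttgggctacctccgatgaca
Tagln: ctttgaaggagacccagcccagcctctaca
Acta2: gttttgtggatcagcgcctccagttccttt
On mm9 the Rgs5 probe lies on chromosome 1 (chr1:171623021-171623080, plus strand) and that of Abcc9 on chromosome 6 (chr6:142536920-142536979, minus strand). The Tagln probe lies on chromosome 9 (chr9:45738097-45738156, minus strand) and that of Acta2 on chromosome 19 (chr19:34316060-34316119, minus strand). The GC content of the 10 member probes ran from 35% (Pdgfrb) to 55% (Cspg4, Myh11 and Des). The Des probe spans 226 bases of the genome, more than its own length. The exon or UTR each probe falls in was not analysed here.

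Of the pericyte genes, Rgs5 and Pdgfrb were higher in every heterozygous sample than in any wildtype sample, Abcc9 was lower in each by a margin close to 0, and Cspg4 and Kcnj8 overlapped. Groups that did not overlap were found for 16.9% of probes tested, 8.01% with the heterozygous samples higher and 8.91% with them lower. Rgs5, a regulator of G-protein signalling that is among the most used pericyte markers, read 8.64, 8.23, 8.79 and 8.61 in wildtype replicates 1 to 4 and 9.87, 9.98, 9.80 and 10.25 in heterozygous replicates 1 to 4. The highest wildtype sample lay about 1 unit below the lowest heterozygous one. The means were 8.57 ± 0.24 and 9.97 ± 0.20 (SD, n = 4 each), a difference of 1.41 (SE 0.39, 95% interval 0.51 to 2.30) or 2.65-fold. The 2 wildtype arrays differed from each other by 0.27 and the 2 heterozygous arrays by 0.099, both far less than the genotypes did. Over 26 alternative runs the difference stayed between 1.16 (spatial trend of each array removed) and 1.54 (without heterozygous replicate 3). Of these runs 14 changed a setting, 8 left out 1 replicate and the rest left out 1 array. Settings that changed only the model or the probe filter could not move the difference. Nor could keeping outlier spots, since Rgs5 had none.

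Pdgfrb, the receptor through which pericytes are recruited to vessels (its probe lies on chromosome 18), read 9.28, 9.37, 8.68 and 8.73 in wildtype and 9.95, 10.06, 9.67 and 9.88 in heterozygous samples. The groups did not overlap, and the gap between them, from 9.37 to 9.67, was smaller than that between the wildtype arrays. Means were 9.01 ± 0.36 and 9.89 ± 0.16 (SD, n = 4 each), a difference of 0.88 (SE 0.27, 95% interval 0.27 to 1.48). The wildtype arrays stood 0.62 apart and the heterozygous arrays 0.23. With the scanner's own processed signals the difference was 0.51, without the array of wildtype replicates 1 and 2 it was 1.19, and without that of wildtype replicates 3 and 4 it was 0.56.

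Abcc9 and Kcnj8 encode the regulatory subunit SUR2 and the pore Kir6.1 of the ATP-sensitive potassium channel of mural cells, which opens when the cell's energy runs low and relaxes the vessel. The genes are next neighbours on chromosome 6, with 0 genes between them in the RefSeq table and 23373 bases between their probes on mm9. Abcc9 read 8.13, 8.12, 8.91 and 9.02 in wildtype and 8.02, 8.11, 7.63 and 7.75 in heterozygous samples, of which heterozygous replicate 3 was not well above background. The groups were separate by little, 8.12 in the lowest wildtype against 8.11 in the highest heterozygous sample, and the array of wildtype replicates 1 and 2 read like that of heterozygous replicates 1 and 2. The difference was −0.67 (SE 0.31, 95% interval −1.36 to 0.02). The wildtype arrays differed by 0.84, more than the genotypes did. Without the array of wildtype replicates 3 and 4 the difference was −0.25, and without that of replicates 1 and 2 it was −1.09.

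Kcnj8 was dim, with 7.02, 6.94, 7.42 and 7.32 in wildtype and 7.03, 7.12, 6.86 and 6.92 in heterozygous samples. It was well above background in 6 of 8 samples, all but wildtype replicate 1 and heterozygous replicate 3. Its difference of −0.19 (SE 0.25) lay within its error, and it stood at 0.057 once the spatial trend of each array was removed. Both subunits read highest on the array of wildtype replicates 3 and 4 (array means 8.97 for Abcc9 and 7.37 for Kcnj8) and lowest on that of heterozygous replicates 3 and 4 (7.69 and 6.89). The remaining arrays lay between, at 8.12 and 8.06 for Abcc9 and 6.98 and 7.08 for Kcnj8.

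Cspg4, the NG2 proteoglycan, which marks pericytes and also precursors of oligodendrocytes, read 9.61, 10.28, 10.22 and 10.32 in wildtype and 9.29, 9.46, 9.97 and 10.21 in heterozygous samples. The groups overlapped. The difference was −0.37 (SE 0.36, 95% interval −1.19 to 0.44), and it turned to 0.16 with the spatial trend removed. Wildtype replicates 1 and 2 shared an array and still differed by 0.67, the largest gap within an array of any member.

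**Figure D1:**
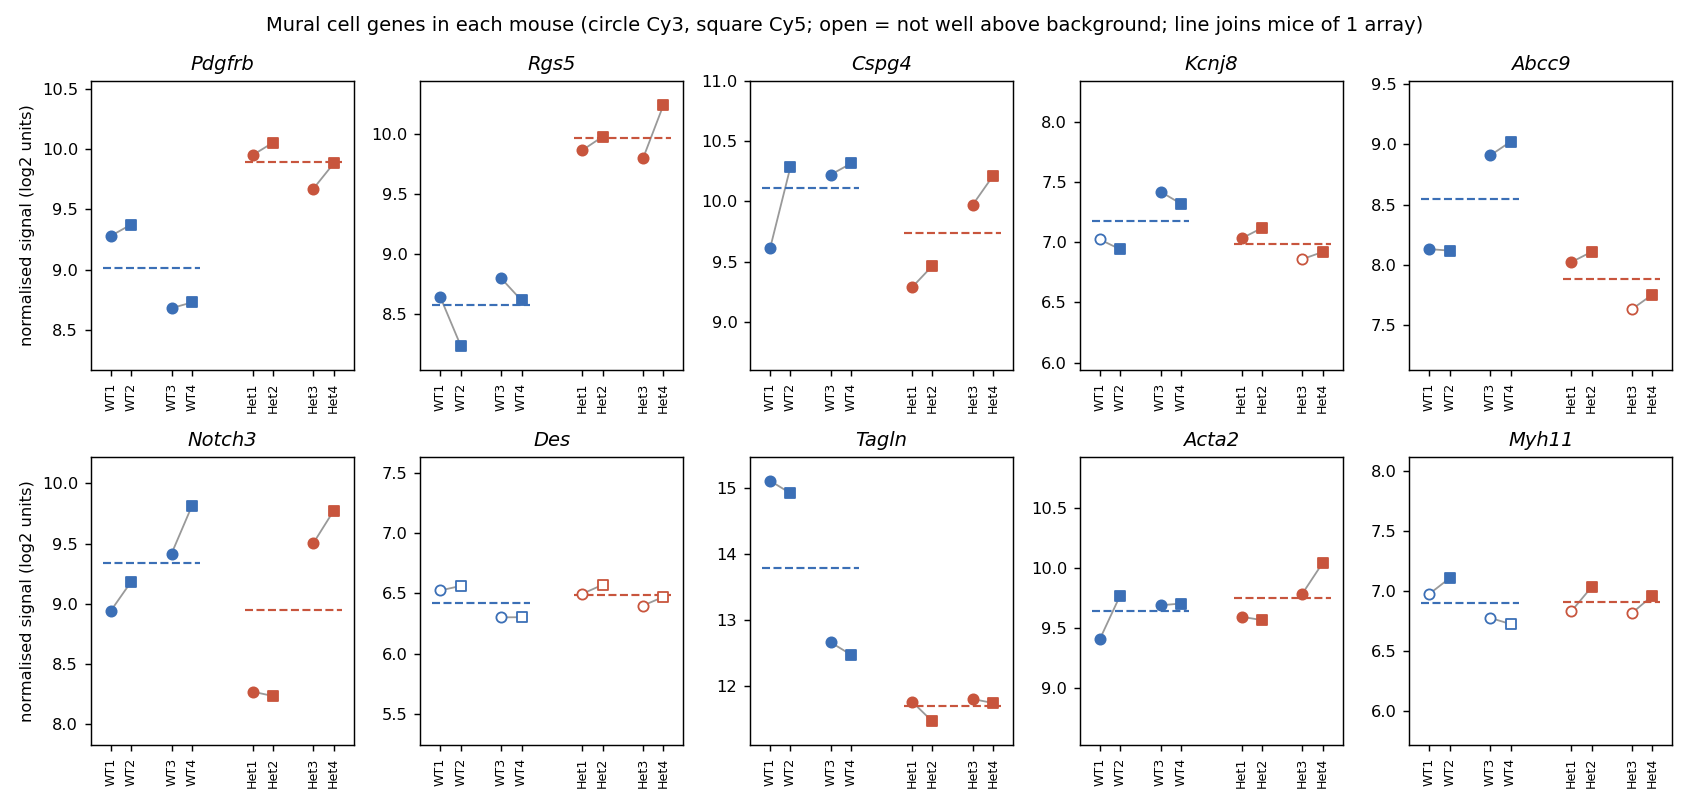
Normalised log2 signal (vertical axis, with a range of its own in each panel) of the 10 mural cell genes in the 4 wildtype (WT, blue) and 4 heterozygous (Het, red) mice, with circles for Cy3, squares for Cy5, open symbols where the probe was not well above background, grey lines joining the mice of 1 array and dashed lines at the group means. Rgs5 and Pdgfrb lie higher in all heterozygous mice, Tagln stands highest on the array of wildtype replicates 1 and 2, and Acta2 overlaps.

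The genes shared by both mural cell types gave no separation of the genotypes. Notch3, the Notch receptor of mural cells, read 8.94, 9.18, 9.42 and 9.81 in wildtype samples and 8.27, 8.23, 9.51 and 9.77 in heterozygous samples. The heterozygous arrays differed from each other by 1.39, over 3 times the genotype difference of −0.39 (SE 0.44). Its sign rested on 1 array: with heterozygous replicates 1 and 2 and their array left out the difference was 0.30, and with replicates 3 and 4 left out it was −1.09.

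Des, the intermediate filament protein desmin of muscle cells and pericytes, was not well above background in any of the 8 samples by the majority of its 10 spots. Its values ran from 6.30 to 6.56 in wildtype and from 6.40 to 6.57 in heterozygous samples. At most 4 of its 10 spots were well above background, in heterozygous replicate 2. No genotype difference is read from it.

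Of the contractile genes of smooth muscle, Tagln was lower in heterozygous samples, Acta2 differed by less than its error, and Myh11 was near background. Tagln, the actin-binding protein SM22-alpha of smooth muscle, read 15.10, 14.91, 12.66 and 12.48 in wildtype and 11.77, 11.47, 11.81 and 11.75 in heterozygous samples. Every heterozygous sample was lower than every wildtype sample, but the wildtype samples themselves fell into 2 levels by array. Their array means of 15.01 and 12.57 stood 2.44 apart, more than the genotypes did, and 0.582% of probes tested had a wider gap between the wildtype arrays. The genotype difference was −2.09 (SE 0.62, 95% interval −3.48 to −0.69), or 4.25-fold lower. Against the array of wildtype replicates 3 and 4 alone it was −0.87, and against that of wildtype replicates 1 and 2 alone −3.31. The median gap between wildtype arrays over all probes tested was 0.35.

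Acta2, the smooth muscle actin, is the 1 fitted member read at more than 1 spot, since its probe is printed at 10 places on each array. Its means over spots were 9.41, 9.77, 9.69 and 9.70 in wildtype and 9.59, 9.57, 9.79 and 10.04 in heterozygous samples. The groups overlapped, at 9.64 ± 0.16 and 9.75 ± 0.22 (SD, n = 4 each), with a difference of 0.11 (SE 0.28, 95% interval −0.53 to 0.74). A difference of 1 log2 unit in either direction lies outside that interval. It is not excluded, since the interval may be too narrow with only 2 arrays per genotype. The local background of Acta2 was 221 and 140 in heterozygous replicates 3 and 4, against 17.95 to 36.25 in the other samples. An outlier spot was left out in heterozygous replicate 3 and kept in replicate 4, where it read 10.44. With outlier spots kept the difference was 0.15. The part of the raised background in it was not tested. Compared spot by spot at the same array position, heterozygous mice were above wildtype at 6 of the 10 spots and below at 4. The differences ran from −0.37 to 1.29, with a median of 0.072. The highest was that of the spot that read lowest in every wildtype sample. It read 7.58, 8.29, 8.93 and 9.01 in wildtype and 9.58, 9.62, 9.78 and 9.98 in heterozygous samples. How far that spot moves the mean difference of Acta2, or its sign, was not tested.

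The 10 spots of Acta2 show how far copies of 1 probe differed within an array. In wildtype replicate 1 they spanned 2.42 units upward from 7.58, a 5.34-fold range, with an SD of 0.70, and in wildtype replicate 2 on the same array from 8.29 to 10.34 (SD 0.61). The same spot was the lowest in both mice. In wildtype replicates 3 and 4 the SD was 0.43 and 0.46, and in the heterozygous samples 0.20 to 0.30. The spots kept their order between the 2 dyes of an array, with correlations of 0.980 to 0.988 across 9 or 10 spots that share the same printed DNA, given as a description. The 2 mice of an array thus shared the deviation of each spot. Over the 199 probes printed at 10 spots and well above background in all samples, the median SD between spots was 0.32 to 0.53 per sample. Of the other members, all but Des had 1 spot per array, so the spread between spots could not be measured for them, and its part in their genotype differences was not tested.

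**Figure D2:**
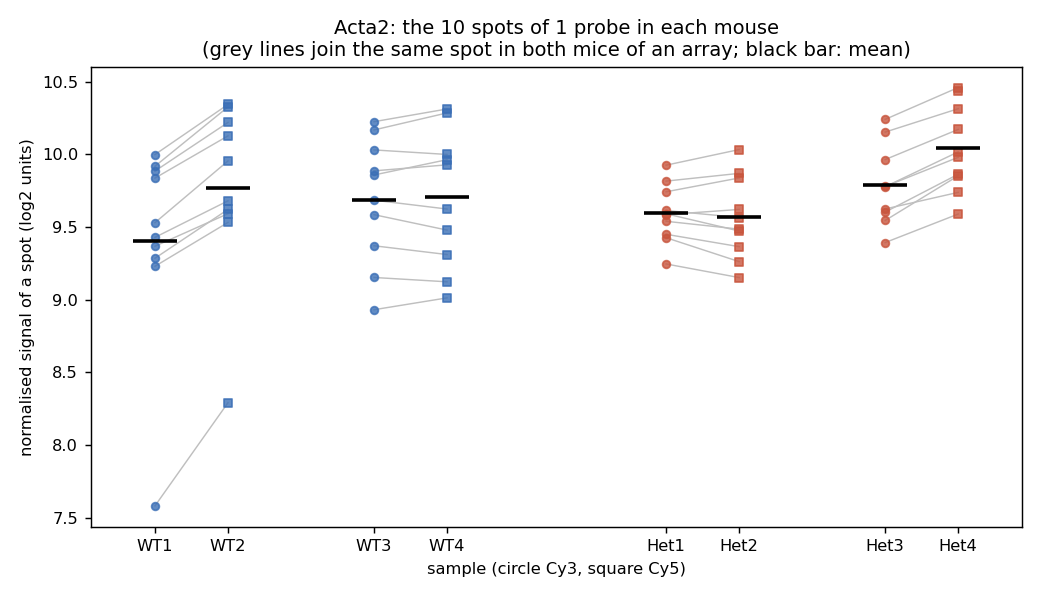
Normalised log2 signal (vertical axis) of each of the 10 spots of the Acta2 probe in each mouse (horizontal axis), with grey lines joining the same spot in the 2 mice of an array and black bars at the sample means. Spots of 1 sample spread over up to 2.42 log2 units, wider than the 0.11 between the genotypes, and keep their order between the mice of an array.

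Myh11, the myosin heavy chain of smooth muscle, was well above background in 3 of 8 samples, wildtype replicate 2 and heterozygous replicates 2 and 4, all labelled with Cy5. It read 6.98, 7.11, 6.78 and 6.73 in wildtype and 6.83, 7.03, 6.82 and 6.96 in heterozygous samples, which overlapped.

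Over the fitted members, 2 of 8 were higher in all heterozygous samples (Rgs5 and Pdgfrb) and 2 of 8 lower (Tagln and Abcc9), and since the list was chosen with these values known, nothing is read from that count beside the 16.9% of probes tested. Rgs5 and Tagln were at least 1 log2 unit apart, as were 3.44% of probes tested, and 2.41% were so without overlap. The median difference of the 5 pericyte genes was −0.19 and that of the smooth muscle genes −0.99, beside −0.018 over 13151 genes tested, of which 48.0% were higher. The smooth muscle median is the midpoint of Tagln and Acta2 alone, and with Myh11 let in it was 0.014. The pericyte median is the value of Kcnj8, with Rgs5 and Pdgfrb above 0 and the others below.

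To set the 2 groups of genes against each other, each gene was centred on its mean over the 8 mice, which removes the levels of the probes. The mean centred value of the 2 fitted smooth muscle genes lay above that of the pericyte genes on 1 wildtype array. Elsewhere it lay below or near it, which centring partly forces, since the centred values of a gene balance out over the 8 mice. On that array Tagln alone was high: its centred values were 2.36 and 2.17 in wildtype replicates 1 and 2, against −0.29 and 0.074 for Acta2. The mean of the centred smooth muscle values minus that of the pericyte values was 1.29 and 1.32 in wildtype replicates 1 and 2 and −0.062 and −0.14 in wildtype replicates 3 and 4. In heterozygous replicates 1 to 4 it was −0.58, −0.86, −0.42 and −0.54. The genotypes did not overlap and differed by −1.20, or by −0.50 without the array of wildtype replicates 1 and 2, where Tagln read highest. Since the members were chosen with these values known, nothing is read from that lack of overlap.

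**Figure D3:**
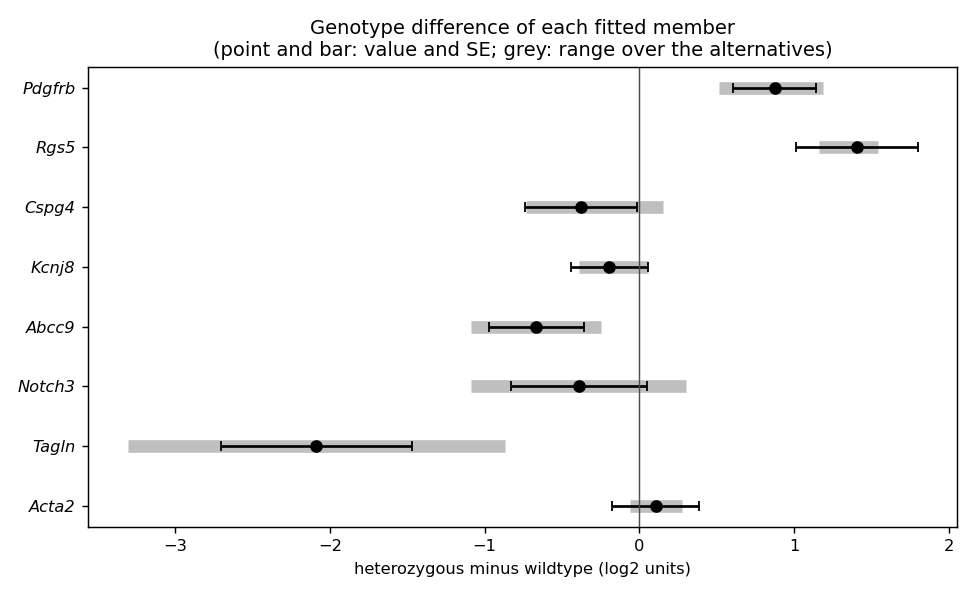
Heterozygous minus wildtype difference in log2 units (horizontal axis) of the 8 members that entered the fit, with the SE as a black bar. The grey band is the range over the alternative settings and the runs without single samples or arrays. Settings that change only the model or the probe filter leave a member's difference unchanged. Rgs5 and Pdgfrb stay above 0 and Tagln and Abcc9 below 0 in every alternative run, while the bands of Cspg4, Kcnj8, Notch3 and Acta2 cross 0.

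Further genes of the same cells were looked up from lists chosen with earlier results known, and none of their genes was called by limma at an adjusted p under 0.05. Of 16 further pericyte genes 14 were tested, 8 higher and 6 lower, with a median of 0.018. The brightest 3 were Mcam, a cell adhesion molecule of vessel walls, at 0.055 (SE 0.34), Vtn, vitronectin, which pericytes deposit in the matrix, at 0.25 (SE 0.23) and Zic1, a transcription factor, at −1.02 (SE 1.05). In 2 of the 14 (Vtn and Atp13a5) the heterozygous samples lay wholly above wildtype, and in 1 (Ndufa4l2) wholly below, beside 8.01% and 8.91% of all probes tested, and Atp13a5 and Ndufa4l2 were named after their values were seen. Tbx18, a mural cell transcription factor, was well above background in no sample.

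Of 16 further contractile genes 11 were tested, 3 higher and 8 lower, with a median of −0.046 and no gene whose groups did not overlap. Tpm1, a tropomyosin, stood at −0.54 (SE 0.44), with −1.32 to −0.33 over its other 3 probes. Srf, the transcription factor that drives contractile genes together with its partner Myocd, stood at 0.081 (SE 0.32) and 0.95 (SE 0.49) by its other probe. Cavin1, a caveolar coat protein, stood at −0.012 (SE 0.40). Lmod1, Myocd, Actg2 and Pln were well above background in no sample. The summed signal of the contractile list was 14.49 to 14.59 log2 units in wildtype and 14.23 to 14.42 in heterozygous samples, which did not overlap. That sum gives most weight to the brightest genes. The brightest was Tpm1, at 12.88 ± 0.42 in wildtype and 12.33 ± 0.40 in heterozygous samples (SD, n = 4 each). The part of Tpm1 in the sum was not tested. The mean of the list's centred values, which weights genes equally, ran from −0.13 to 0.34 and from −0.21 to 0.0069, which overlapped.

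Of 13 genes of PDGF and Notch signalling 8 were tested, 3 higher and 5 lower, with a median of −0.086. Pdgfb, the endothelial ligand of Pdgfrb, stood at 0.26 (SE 0.27), and its dimmer probe at −0.00099. Pdgfc, a related growth factor, read 9.09 ± 0.10 in wildtype and 8.42 ± 0.16 in heterozygous samples (SD, n = 4 each). Jag1, a Jagged ligand of Notch receptors, read 7.82 ± 0.13 and 8.64 ± 0.15, a difference of 0.82 (SE 0.30). It was the 1 tested gene of the list wholly above wildtype, and Pdgfc and Notch1 (−0.71, SE 0.43) were the 2 wholly below. Of all probes tested 8.01% lay wholly above and 8.91% wholly below, and nothing is read from the count in a list chosen with earlier results known. Jag1 and Notch1 were named after their values were seen. Pdgfd and Hes1 were well above background in no sample. Rbpj, the DNA-binding partner of Notch, stood at −0.061 (SE 0.36). Of the related potassium channel subunits of neurons and endocrine cells, Abcc8 stood at 0.65 (SE 0.37) and Kcnj11 at 0.055 (SE 0.32).

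Markers of other cells that could carry these transcripts were read beside the members. Endothelial genes had 11 of 12 tested, 6 higher and 5 lower, with a median of 0.020. Groups did not overlap for 4 of the 11, beside 16.9% of all probes tested (8.01% higher and 8.91% lower in heterozygous samples). The list was chosen with earlier results known, so nothing is read from that count. Cdh5 (0.48, SE 0.33) and Slco1a4 (0.60, SE 0.28) were higher, and Cldn5 and Tie1 (−0.73, SE 0.32) lower. Of these, Cdh5, Slco1a4 and Tie1 were named after their values were seen. The summed signal of the endothelial genes ran from 14.01 to 14.63 log2 units in wildtype and from 14.04 to 14.53 in heterozygous samples, which overlapped. Cldn5, the tight junction protein of brain vessels, read 12.14 ± 0.14 and 11.08 ± 0.40 (SD, n = 4 each), Ly6c1 stood at 0.38 (SE 0.40) and Kdr, the VEGF receptor, at 0.020 (SE 0.33; −0.051 by its other probe). Every endothelial gene was well above background in at least 1 sample. Fibroblast and meningeal genes, which mark cells that can also express Tagln, had 9 of 10 tested, 5 higher and 4 lower, a median of 0.0075, and a summed signal of 11.29 to 12.00 in wildtype and 11.33 to 11.64 in heterozygous samples. Dcn, decorin, stood at 0.0075 (SE 0.50), Pdgfra at −0.076 (SE 0.23) and Col1a2, a fibrillar collagen chain, at −0.23 (SE 0.33).

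Oligodendrocyte precursor genes, the other source of Cspg4, had 4 of 7 tested, 1 higher and 3 lower, with a median of −0.081 and a summed signal of 12.94 to 13.60 in wildtype and 12.75 to 13.07 in heterozygous samples. Ptprz1 stood at −0.45 (SE 0.39), Gpr17 at −0.085 (SE 0.40) and Olig2 at 0.21 (SE 0.29). Heart and skeletal muscle genes, which could carry Des and Acta2, had 3 of 10 tested, all lower, with a median of −0.19 and a summed signal of 11.19 to 12.23 in wildtype and 11.21 to 11.72 in heterozygous samples. Myh7 stood at −0.19 (SE 0.60), Tnnt2 at −0.0060 (SE 0.35) and Nppa at −0.27 (SE 0.46). Striatal neuron genes had 7 of 10 tested, 5 higher and 2 lower, with a median of 0.47 and a summed signal of 16.64 to 17.73 in wildtype and 17.81 to 18.25 in heterozygous samples, which did not overlap, while the mean of centred values ran from −0.98 to 0.31 and from −0.028 to 0.49, which did. Ppp1r1b stood at 0.47 (SE 0.65), Penk at 0.86 (SE 0.71) and Tac1 at 0.85 (SE 0.58), and the part of this and of the Cldn5 and contractile list values in the members' differences was not tested.

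**Figure D4:**
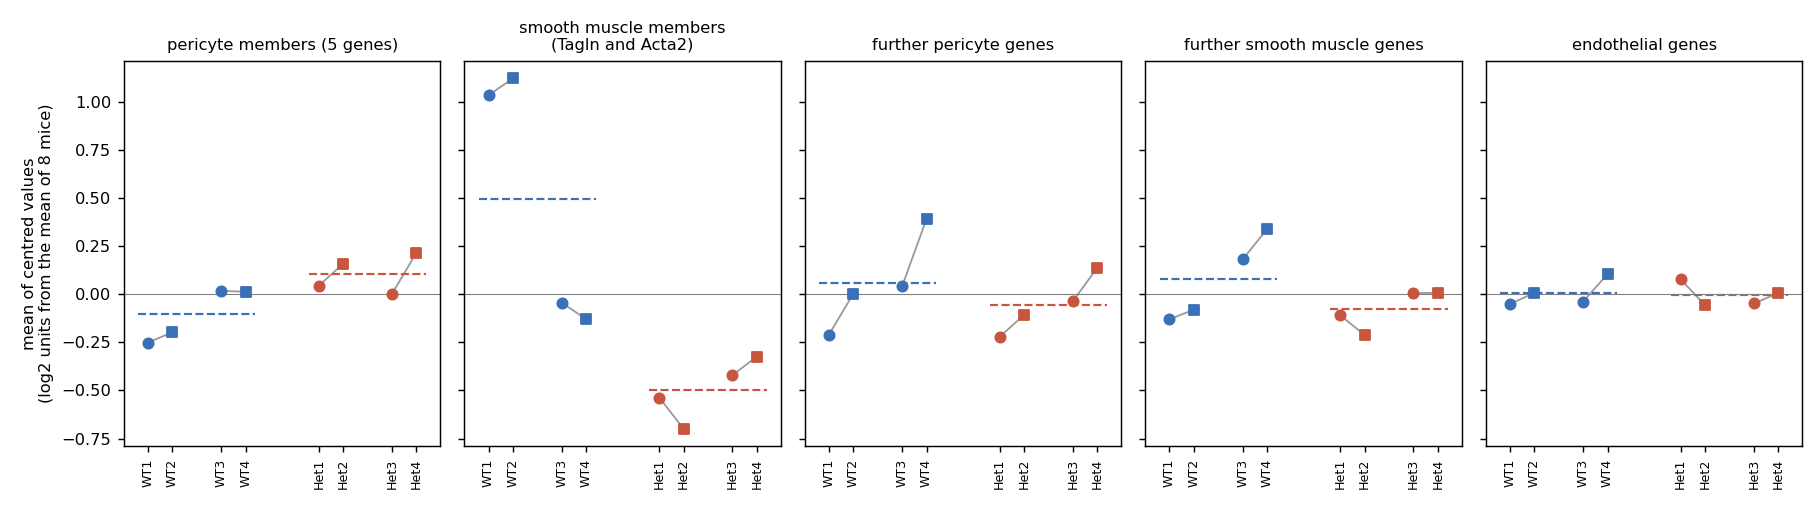
Mean of centred log2 values (vertical axis, log2 units from the mean of the 8 mice) of the 5 pericyte members, of Tagln and Acta2, and of the further pericyte, contractile and endothelial genes in each mouse, with symbols as in the plot of the members by sample. Tagln and Acta2 together stand above 1 on the array of wildtype replicates 1 and 2 only, and the 3 further lists overlap between the genotypes.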

How the data were processed

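RNA of 8 mice was read on 4 Agilent arrays. The deposited scanner files give, for both dyes, the intensity of a spot, that of its surroundings and a processed intensity (Feature Extraction 11.0.1.1, mm9 design, per the file headers). The deposited value table holds a linear ratio, the median signal over background of a sample divided by its column's median, found by setting it against the scanner values. Each column's median is 1, so scale, centring and direction are settled. The members and lists were chosen with earlier results of these data known.

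Each sample's own channel was corrected with normexp (offset 50), loess and Aquantile in limma 3.58.1 (R 4.3.3). Control and outlier spots were left out and spots of 1 probe averaged. Probes well above background (by most of their spots) in at least 4 of 8 samples, with 8 values, were fitted with lmFit and eBayes, dye as a covariate and array as a random block (correlation 0.810). The 3889 bright probes with a missing value were left out. Intervals count both mice of an array and may be too narrow. The fit was tested on simulated data. Of 39429 probes 27234 were named through a RefSeq table of GRCm38.p6 and 5949 by the file. Named genes were all members, the 3 brightest tested genes of each further list (read by their brightest probe), and the 3 genes nearest to Acta2 and Rgs5 in pattern. List genes above background in no sample were also named, and others outside the rule are marked in the text.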

Additional observations from a re-analysis of the deposited data

Results flagged for a closer look

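Cspg4 in wildtype replicate 1 read 9.61 log2 units, below the other 3 wildtype samples at 10.22 to 10.32, and the gap was 0.868 of the group's range. Of 26 groups of 4 values examined (10 genes and 3 group means in both genotypes) this was the 1 that stood apart. Chance alone sets apart about 1 in 20 where the 4 values are independent. Mice of 1 array are correlated here, so that rate is only a guide. Its array partner, wildtype replicate 2, read 10.28.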

How the results depend on the processing

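The number of probes called was 0 in the planned fit and in most alternatives (lowest adjusted p of 0.435 in the planned fit). It was 1 with the deposited value table, 529 of 18393 probes tested without the array block, and 0 to 1 without single replicates. With 1 array left out it was 19 (wildtype replicates 1 and 2), 13 (wildtype replicates 3 and 4) and 5 (heterozygous replicates 3 and 4). Rgs5 was among the 529 and Tagln among the 13, and no member was called in the other runs of this paragraph. The members were chosen with earlier results known, so nothing is read from these calls. The separate-channel model and array averages called 0.

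The median of the pericyte genes (−0.19) was 0.16 with the spatial trend removed and 0.88 over probes well above background in all samples, where fewer genes are left, and −0.23 to −0.16 without single replicates. That of the smooth muscle genes (−0.99) was 0.014 without a filter on dim probes, which lets Myh11 in, and −0.41 and −1.57 with the first or the second wildtype array left out. The smooth muscle minus pericyte difference (−1.20) was −0.50 and −1.90 likewise. The cause of the shift with the spatial trend was not tested.

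With the replicate number as a block and no array block, 674 of 18393 probes tested were called, Rgs5 and Pdgfrb among them. Samples of the same number correlated at 0.039 to 0.26 in their deviations, with 2 of 4 closest to their own number. With the dye removed the correlations were 0.068 to 0.17. With so few mice, and the number tied to the dye, this cannot decide whether the numbers pair the mice. Signal near background limits what Kcnj8, Myh11 and Des can show.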

Other observations

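Among 13143 other genes, those whose centred values over the 8 samples came nearest to Rgs5 were Ndufa8, Adgrf5 and Pelp1, with a root mean square difference of 0.19, 0.20 and 0.21 log2 units, where the median over all genes was 0.80. Their own genotype differences were 1.21, 1.30 and 1.13. Such values follow from the choice, since genes were picked for following Rgs5, whose spread over the samples is mostly its genotype gap. Nearest to Acta2 were Phkg1, Ldb3 and Vps25, at 0.073, 0.076 and 0.085, where the median was 0.37. Genes were read by their brightest probe, and the measure shares arrays and dyes with the members.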
